A study of Mus musculus with 12 samples.

Results

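The comparison described here sets 3 arrays of ovaries that carry a transgene for active Foxo3 (Tg Foxo3+/-) against 3 arrays of ovaries without it (NoTg Foxo3+/-), 6 of the 12 Illumina mouse bead arrays of the series. The arrays were chosen by their labels, and all probes detected above the negative control beads were described. The RNA on all 6 arrays came from FVB/N females at 14 dpn, and all of them, the NoTg controls included, were heterozygous for Foxo3. The transgenic ovaries therefore held 1 Foxo3 allele plus the transgene, and the controls 1 Foxo3 allele alone. The series title places a constitutively active Foxo3 in oocytes, and the labels name neither the promoter that drives it, nor the line, nor the form of the protein. The remaining 6 arrays, 3 Tg Foxo3-/- and 3 NoTg Foxo3-/-, entered the same model and are used below only for the transgene difference in ovaries without Foxo3.

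FOXO3 is a forkhead transcription factor that sits in the nucleus of resting oocytes and holds primordial follicles in reserve. When KIT on the oocyte surface activates PI3 kinase, AKT phosphorylates FOXO3, 14-3-3 proteins bind it, it leaves the nucleus, and the follicle starts to grow. A form that AKT cannot phosphorylate stays nuclear, which is what is usually meant by constitutively active. Its known targets include genes of cell cycle arrest, apoptosis and stress defence.

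RNA was taken from the whole organ, so fewer cells of a type and less RNA per cell cannot be told apart in any value below. Markers of oocytes (Gdf9, Zp3, Ddx4, Figla), granulosa cells (Amh, Foxl2, Inha, Fshr), theca cells (Cyp17a1, Cyp11a1) and stroma (Dcn, Pdgfra, Col1a1) were detected on all 6 arrays, whereas Star, of steroid synthesis, was detected on 1 of 3 arrays in each group. Each Tg array had 20579 to 21614 detected probes, and each NoTg array 20072 to 22015. The raw background, the median intensity of probes with a detection p above 0.5, was 66.07 ± 0.833 on the Tg arrays and 78.13 ± 1.76 on the NoTg arrays (SD, n = 3 each), with no overlap. The difference of -12.1 intensity units had a two-sided exact permutation p = 0.1, the smallest that 3 against 3 arrays allow. The array background, the transgene and any step that both followed cannot be told apart, and every value below carries that limit. For that reason probes of the same gene are set side by side.

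Foxo3 itself showed no difference that its 1 tested probe could resolve. The raw intensity of this probe (ILMN_2501865) was 262, 294.8 and 383.7 on the Tg arrays, against 254.1, 273.7 and 454.7 on the NoTg arrays, so the groups overlapped. After normalization it differed by -0.09 ± 0.17 SE, the standard error of the log2 difference (limma adjusted p = 0.910). The remaining probes of Foxo3, ILMN_2439078 and ILMN_2690574, were detected on none of the 6 arrays. The sources used here do not say where these probes lie relative to the transgene or to the disrupted part of Foxo3, so they are no check of the labels. Foxo1, which granulosa cells express strongly, stood, on its brighter probe, at 10.83, 10.40 and 10.34 in Tg ovaries, against 10.34, 10.50 and 10.64 in NoTg ovaries, and the groups overlapped (difference 0.03). Its dimmer probe differed by 0.455 ± 0.23 SE, also with overlap and without passing (limma adjusted p = 0.54). Foxo6 was dim and differed by -0.20 (adjusted p = 0.711).

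The genes of KIT and PI3 kinase signalling and the known FOXO targets had medians close to that of all genes, whereas the 14-3-3 genes lay lower. Over all 12173 named genes, each taken by its brightest probe, the median log2 difference between Tg and NoTg ovaries was 0.02, and 0.304% of them passed the test (limma, adjusted p under 0.05). Of 18 measured genes of KIT and PI3 kinase signalling, 0 passed (0 also at an unadjusted p under 0.05), 8 lay below 0 and 10 above, with a median of 0.003 and a range of -0.24 to 0.21. Pik3cd, a catalytic subunit of PI3 kinase, differed by -0.22 and Mtor, the growth kinase downstream, by 0.14, both on their brighter probe. Of 31 measured FOXO target genes, 0 passed by their brightest probe (2 lower at an unadjusted p under 0.05), 15 lay below 0 and 16 above, with a median of 0.02. The lowest target was Ccng2, an atypical cyclin linked to cell cycle exit, at 5.20, 4.83 and 5.32 in Tg ovaries, against 5.68, 5.64 and 6.14 in NoTg ovaries. These groups did not overlap, yet the difference of -0.71 ± 0.18 SE did not pass (adjusted p = 0.104). Sesn3, a stress-induced sestrin, differed by -0.37 (adjusted p = 0.485), whereas Txnip, an inhibitor of thioredoxin, differed by 0.32 (adjusted p = 0.522). Gadd45a, a DNA damage response gene, lay higher on both of its probes, by 0.19 and 0.20. Of 6 measured 14-3-3 genes, 0 passed (2 lower at an unadjusted p under 0.05) and 5 lay below 0, with a median of -0.12. That median was -0.055 without NoTg replicate 3. Ywhae had 5.70, 6.16 and 5.95 in Tg ovaries, against 6.39, 6.64 and 7.07 in NoTg ovaries (difference -0.76 ± 0.20 SE, adjusted p = 0.112).

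Of the 22511 probes tested, 82 (0.364%) passed and are named called probes below, 81 of them lower in Tg ovaries (0.36%) and 1 higher (0.00444%). The 81 falls were of similar size, between -0.53 and -1.12 on the log2 scale with a median of -0.83, against a median of 0.02 over all probes. The tested differences leaned the same way among larger values, since 19 probes lay lower and 6 higher by more than 1 on the log2 scale, and 1451 lower and 791 higher at an unadjusted p under 0.05. That lean was not kept in every setting. With scaling by the median of all probes, chosen after seeing the data, 559 of 1927 probes at an unadjusted p under 0.05 (limma) were lower. With array background as a covariate it was 269 of 544, and with the authors' normalized values 2319 of 2851. Of the 82 probes 65 carry a gene name and stand for 63 genes, and 17 are unnamed here. In all 82 the 3 Tg and 3 NoTg values did not overlap, which was so for 7.84% of all probes in the lower direction and 7.04% in the higher. The probes were called on these same arrays, which favours groups that do not overlap, so this is no separate evidence. The count rests on few arrays: leaving out Tg Foxo3+/- replicate 2, NoTg Foxo3+/- replicate 2 or NoTg Foxo3+/- replicate 3 left 0 calls (1970, 1857 and 2523 probes at an unadjusted p under 0.05), leaving out Tg Foxo3+/- replicate 3 or replicate 1 left 1 and 11, and a model of these 6 arrays alone gave 0 (2044 at an unadjusted p under 0.05). Without Tg Foxo3-/- replicates 1, 2 or 3 it gave 13, 13 and 7, and without NoTg Foxo3-/- replicate 2 it gave 127. The direction of each of the 82 differences was kept in every such model. That was close to fixed in advance, since leaving out 1 array can hardly reverse a difference between groups that do not overlap. The model of these 6 arrays alone has the same group means, so it could not change the direction.

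**Figure D1:**
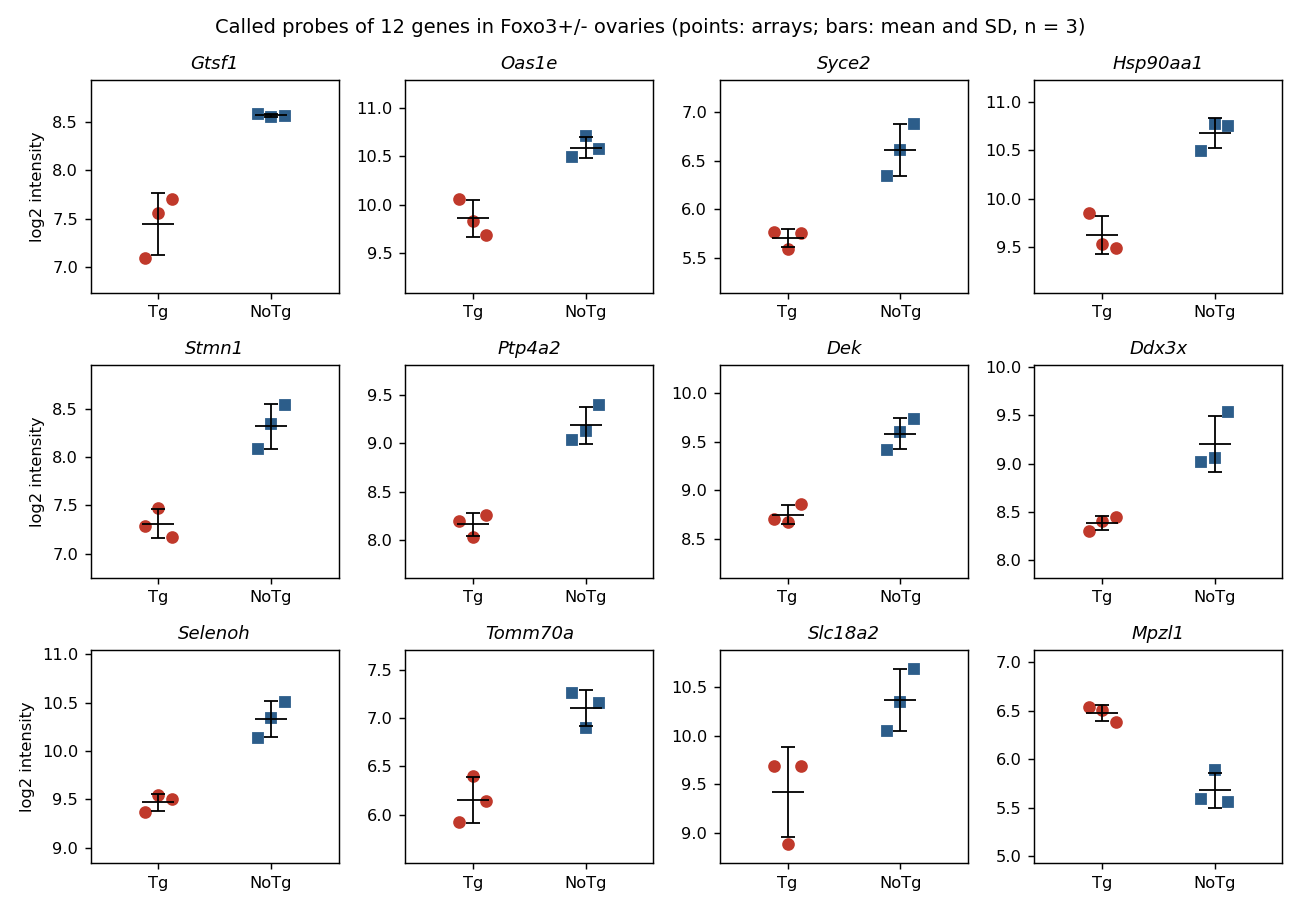
Log2 intensity of the called probe of 12 genes on each Tg (red circles, left) and NoTg (blue squares, right) Foxo3+/- array, with the mean and SD of 3 arrays; every panel has an axis of the same length. In 11 panels all Tg points lie below all NoTg points, and in the panel of Mpzl1 all lie above.

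Among the lists of oocyte and germ cell genes, 2 of 30 maternal effect genes (Gtsf1 and Oas1e), 1 of 19 piRNA genes (Gtsf1 again) and 1 of 12 genes of meiosis (Syce2) fell, where 0.304% of all genes passed. The lists were chosen with earlier results of these data known, so these shares do not test whether such genes fall more often. Gtsf1, a zinc finger protein of the piRNA pathway that silences transposons, had a log2 intensity of 7.09, 7.56 and 7.70 in Tg ovaries, against 8.58, 8.56 and 8.57 in NoTg ovaries. Every Tg value lay below the NoTg values, which were within a narrow band, and the fall was 2.17-fold (-1.12 ± 0.15 SE, limma adjusted p = 0.0112), the furthest from 0 of the called falls. Oas1e, an oocyte-expressed relative of the antiviral oligoadenylate synthetases, had 10.06, 9.83 and 9.69 in Tg ovaries, against 10.49, 10.71 and 10.57 in NoTg ovaries, a fall of 1.66-fold (-0.73 ± 0.15 SE, adjusted p = 0.0402). Syce2, a central element protein of the synaptonemal complex that joins paired chromosomes in meiosis, had 5.77, 5.59 and 5.75 in Tg ovaries, against 6.34, 6.61 and 6.88 in NoTg ovaries, a fall of 1.88-fold (-0.91 ± 0.18 SE, adjusted p = 0.0392). Each of these genes had 1 tested probe, so no other probe of the gene bears on them. Syce1, another gene of the central element, had 6.53, 6.64 and 6.93 in Tg ovaries, against 7.21, 7.21 and 7.54 in NoTg ovaries and did not pass (difference -0.62, adjusted p = 0.207). Spo11, which makes the breaks that start recombination, was detected on 2 of 3 Tg arrays and was not well above background on any NoTg array, at least 1.05-fold higher in Tg ovaries, without passing (adjusted p = 0.299).

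On the lists of chaperones and of tubulins and microtubule regulators, 1 of 35 and 1 of 22 genes fell by their brightest probe, Hsp90aa1 and Stmn1. Among all genes 0.304% passed and 45.5% lay below 0, with a median of 0.02. The lists were chosen with earlier results known, so these shares are no test. Hsp90aa1, the inducible cytosolic HSP90 chaperone, had, on its called probe, 9.85, 9.54 and 9.49 in Tg ovaries, against 10.50, 10.78 and 10.75 in NoTg ovaries, a fall of 2.07-fold (-1.05 ± 0.14 SE, adjusted p = 0.0112). Its dimmer probe ILMN_2752883 had 5.41, 5.61 and 5.49 in Tg ovaries, against 6.23, 6.48 and 7.30 in NoTg ovaries, a difference of -1.17 that did not pass (adjusted p = 0.0678) but ran the same way without overlap. Of the 35 measured chaperone genes 18 lay below 0 and 17 above, with a median of -0.004. Members below 0 that did not pass included Ptges3, the HSP90 cochaperone p23, at -0.56 (adjusted p = 0.0889), the chaperonin subunit Cct5 at -0.80 and the HSP110 gene Hspa4 at -0.54. Stmn1, which encodes the tubulin-sequestering protein stathmin, had 7.29, 7.48 and 7.17 in Tg ovaries, against 8.08, 8.34 and 8.54 in NoTg ovaries, a fall of 2.01-fold (-1.005 ± 0.17 SE, adjusted p = 0.0311). Tuba1a, an alpha tubulin, fell 2.03-fold on its dimmer probe (adjusted p = 0.0452) and differed by -0.16 on its brighter probe (adjusted p = 0.883). The 22 measured genes of tubulins and microtubule regulators had a median of -0.06. Other called genes of the microtubule system were Dynlt3, a dynein light chain (-0.61), Haus1, an augmin subunit that nucleates spindle microtubules (-0.73), and Kif23, the kinesin of the central spindle (-0.63 on the called probe, 0.12 and -0.12 on the others).

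The called genes whose products act on chromatin, RNA or translation are described together here and were not drawn from 1 list. Dek, a chromatin-binding protein, was called by both of its probes. The first probe of Dek had 8.70, 8.68 and 8.86 in Tg ovaries, against 9.42, 9.60 and 9.74 in NoTg ovaries (difference -0.84 ± 0.13 SE, adjusted p = 0.0240). The second had 9.20, 9.20 and 9.14 in Tg ovaries, against 9.70, 9.84 and 10.04 in NoTg ovaries (difference -0.68 ± 0.13 SE, adjusted p = 0.0392). Ddx3x, an RNA helicase of translation initiation, had, on the called probe, 8.31, 8.41 and 8.45 in Tg ovaries, against 9.02, 9.06 and 9.53 in NoTg ovaries (fall of 1.76-fold, adjusted p = 0.0329). The other probe of Ddx3x differed by -0.80, close to the called value, without passing (adjusted p = 0.113). Ddx3x was the only member that passed among 26 measured RNA helicase and splicing genes, whose median was 0.03, where 0.304% of all genes passed. Prrc2c, a large RNA-binding protein of stress granules, was called by 2 of 5 probes, at -1.07 and -1.05, whereas its brightest probe differed by -0.09 and the remaining 2 by -0.08 and -0.53. Nudt21, a cleavage factor subunit that helps choose the polyadenylation site, had, on its called probe, 7.45, 7.68 and 7.63 in Tg ovaries, against 8.25, 8.47 and 8.66 in NoTg ovaries, a fall of 1.84-fold (adjusted p = 0.0329). The brighter probe of Nudt21 had 10.77, 10.93 and 11.30 in Tg ovaries, against 10.65, 10.85 and 11.14 in NoTg ovaries, overlapping groups with a difference of 0.12. Eif3c, a translation initiation factor subunit, gave -0.88 on its called probe and 0.03 on the brighter one.

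The remaining nuclear and RNA genes that passed were Pbrm1, a subunit of the PBAF chromatin remodeller (-0.94), Rnf20, a ubiquitin ligase of histone H2B (-0.74), the histone gene H3c14 (-0.66), which has near-identical copies and is uncertain, and Resf1, a factor of retroelement silencing (-0.86). They also included Bcas2, a spliceosome component (-0.58), Riok1, a kinase of ribosome maturation (-0.77), Srp14, of the signal recognition particle (-0.53), Kpna3, an importin (-0.84), and Noct, the circadian phosphatase nocturnin (-0.81 on the called probe and -0.78 on the other). Xist, the RNA that coats the inactive X chromosome, lay lower on all 4 of its probes, at -0.69 on the called probe and -0.60, -0.24 and -0.24 on the others. Xlr4c, of an X-linked family with close copies and so uncertain, fell by 0.94 on the log2 scale on its called probe, and its other probe differed by -0.32. The other probes of H3c14 and Riok1 differed by 0.001 and -0.08.

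Called genes of mitochondria and peroxisomes were spread over 3 lists, with 1 gene called on each, and genes on none of them. Over all genes 0.304% passed and 45.5% lay below 0, with a median of 0.02. These lists too were chosen with earlier results known, so their shares are no test. Tomm70a, a receptor of the mitochondrial import pore, had 5.92, 6.40 and 6.14 in Tg ovaries, against 7.26, 6.90 and 7.16 in NoTg ovaries, a fall of 1.93-fold (-0.95 ± 0.17 SE, adjusted p = 0.0338). Ndufb9, a subunit of respiratory complex I, had 7.24, 7.69 and 7.61 in Tg ovaries, against 8.25, 8.47 and 8.58 in NoTg ovaries, a fall of 1.89-fold (-0.92 ± 0.17 SE, adjusted p = 0.0392). Both genes had 1 tested probe and no overlap between the groups. Of 25 measured genes of mitochondrial import 1 fell, 20 lay below 0 and 5 above (median -0.09), and Pmpcb, of the processing peptidase, was the lowest of the rest at -0.75 (adjusted p = 0.0723). Of 65 measured genes of the respiratory chain and ATP synthase 1 fell, 39 lay below 0 and 26 above (median -0.03), with Ndufb2 at -0.79 (adjusted p = 0.0924) and Sdhd, of complex II, at -0.73 (adjusted p = 0.139). ATP6, an ATP synthase subunit encoded by mitochondrial DNA, fell 1.59-fold (adjusted p = 0.0315). Others that passed were the complex I assembly factor Ndufaf5 (-0.92), Aifm1, the apoptosis-inducing factor of the inner membrane (-0.87), the iron-sulphur cluster gene Isca1 (-0.60), Cmc2, a factor linked to cytochrome oxidase assembly (-0.83), Acadsb, a branched-chain acyl-CoA dehydrogenase (-0.67), and the mitochondrial ribosome gene Mrpl13 (-0.98). The brighter probes of Ndufaf5, Aifm1, Isca1 and Mrpl13 differed by 0.02, -0.03, 0.03 and -0.004 in that order. Pecr, a peroxisomal enoyl-CoA reductase, had 6.24, 6.87 and 6.54 in Tg ovaries, against 7.43, 7.41 and 7.69 in NoTg ovaries, a fall of 1.95-fold (adjusted p = 0.0329). Abcd3, a fatty acid transporter of the peroxisome membrane, was called on 1 probe (-0.84), and its 3 other probes lay above 0, between 0.14 and 0.22. Of 25 measured peroxisome genes 1 passed by its brightest probe, with a median of 0.02.

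Genes of membranes, transport and signalling also passed, all lower in Tg ovaries. Slc18a2, which loads monoamines into vesicles and was counted among granulosa genes, had 9.69, 8.88 and 9.69 in Tg ovaries, against 10.05, 10.35 and 10.69 in NoTg ovaries, a fall of 1.93-fold (-0.95 ± 0.19 SE, adjusted p = 0.0402). Its Tg values spread more widely than those of most called probes (SD 0.47). Vps26b and Vps29, both subunits of the retromer coat that sorts cargo from endosomes, were called at -0.74 and -0.78, and the other probes of Vps29 differed by -0.15 and 0.03. Selenoh, a nuclear selenoprotein, fell 1.81-fold on its dimmer probe (adjusted p = 0.0311), with 9.37, 9.54 and 9.50 in Tg ovaries, against 10.13, 10.34 and 10.51 in NoTg ovaries, whereas its brighter probe differed by -0.10. Selenok, a selenoprotein of the endoplasmic reticulum, fell 1.57-fold (adjusted p = 0.0329). Vhl, the substrate receptor of the ubiquitin ligase that degrades HIF proteins, had 6.44, 6.62 and 6.68 in Tg ovaries, against 7.21, 7.34 and 7.58 in NoTg ovaries, a fall of 1.74-fold (adjusted p = 0.0392). Trp53inp1, a p53-induced stress gene on the FOXO target list, fell 1.88-fold on its dimmer probe (adjusted p = 0.0392) and differed by 0.02 on the brighter one. The other calls here were the Golgi membrane gene Golm2 (-1.07), the lysosomal membrane gene Laptm4b (-0.88), the vitamin C transporter Slc23a2 (-0.73), the G protein subunit Gnb4 (-0.94), the phosphoinositide phosphatase Mtmr14 (-0.69), the phosphatase regulator Ppp6r3 (-0.80), the glutaredoxin Glrx3 (-0.83) and the depalmitoylase Abhd17c (-0.63). Each of these 8 had other tested probes, and none of those passed. The other probe of Golm2 differed by -0.02, that of Laptm4b by 0.08, of Slc23a2 by -0.06, of Gnb4, the brighter one, by -0.04, of Glrx3 by -0.05 and of Abhd17c by -0.07. The other probes of Ppp6r3 differed by 0.09 and -0.15, and the other 4 of Mtmr14 by -0.27 to 0.14, the lowest value on the brightest. Ebpl (-0.73), Tanc1 (-0.71), Trim59 (-0.79), Zfand6 (-0.93), Zfp322a (-0.92), Nme7 (-0.83), Mdm1 (-0.81), Naalad2 (-0.80) and Pcmtd2 (-0.80) complete the named falls, beside 1 clone transcript and Ptp4a2, which is described with its other probes. Of these, the brighter probe of Ebpl differed by -0.25, and the other probes of Tanc1 and Zfand6 by 0.05 and 0.11.

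The 17 probes without a gene name fell too, by 0.57 to 1.11 on the log2 scale. The one furthest from 0, ILMN_1232951, had 8.32, 8.76 and 8.70 in Tg ovaries, against 9.55, 9.51 and 10.08 in NoTg ovaries (adjusted p = 0.0195). ILMN_1217709 was not well above background on any Tg array and was detected on the NoTg arrays, at least 1.45-fold lower (adjusted p = 0.0448). This bound sets the NoTg mean against the lowest normalized level of detected probes on each Tg array, or the probe's own value where higher.

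The single gene that rose was Mpzl1, a cell surface protein with immunoglobulin-like folds that binds the phosphatase SHP2. It had 6.54, 6.51 and 6.39 in Tg ovaries, against 5.59, 5.88 and 5.56 in NoTg ovaries, a rise of 1.74-fold (0.80 ± 0.16 SE, limma adjusted p = 0.0392), and it had 1 tested probe. Next by p-value among probes higher in Tg ovaries came Pgap2, which remodels GPI anchors, at 5.58, 5.83 and 5.67 in Tg ovaries, against 5.03, 4.45 and 5.12 in NoTg ovaries (adjusted p = 0.0586). Shmt2, the mitochondrial serine hydroxymethyltransferase, differed by 0.71 (adjusted p = 0.0697) and the circadian gene Per3 by 0.89 (adjusted p = 0.0862). Foxred1 (0.72), the RNA-binding protein gene Msi2 (0.65), Rpn1, of the oligosaccharyl transferase (0.58), and the splicing helicase Dhx15 (0.43) followed, with adjusted p-values of 0.0965 to 0.104. Other probes of several of these genes gave other values: the brighter probe of Dhx15 lay the other way, at 10.43, 10.67 and 10.68 in Tg ovaries, against 10.76, 10.89 and 11.07 in NoTg ovaries, a difference of -0.32 (adjusted p = 0.323). The other 4 probes of Foxred1 lay between -0.07 and 0.54, the other 4 of Msi2 between 0.07 and 0.26, the other 2 of Pgap2 at -0.05 and 0.04, and the brighter one of Shmt2 at 0.065. Slc1a6, Psmd2, Gys1 and Kcns1 were detected on no NoTg array and were at least 1.44-fold, 1.32-fold, 1.30-fold and 1.14-fold higher in that order, without passing (adjusted p from 0.0910 to 0.0951). All 12 of these genes had Tg values above every NoTg value, since that was part of how they were chosen.

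Because FOXO3 binds DNA at sites that contain GTAAACA, the start regions of the called genes were searched for these letters on either strand, as a description only. RefSeq promoter sequences (GRCm38.p6, 250 bases before to 50 after the start) were at hand for 51 of the 63 called genes. The letters were present in 2 of the 51 (3.92%), Mtmr14 and Vps26b, against 4.05% of 27025 genes in the RefSeq table and 3.13% of the 9769 tested genes with a promoter. The 306 tested genes that hold them had a median difference of 0.03, against 0.02 over the tested genes with a promoter, and 131 of them lay below 0. The 2 promoters are shown because they hold the letters, in capitals, 21 bases before the start of Mtmr14 and 108 bases before that of Vps26b, and those of Gtsf1 and Mpzl1 because these genes led the falls and the rise and hold none.
Mtmr14, chr6:113237593-113237892, plus strand: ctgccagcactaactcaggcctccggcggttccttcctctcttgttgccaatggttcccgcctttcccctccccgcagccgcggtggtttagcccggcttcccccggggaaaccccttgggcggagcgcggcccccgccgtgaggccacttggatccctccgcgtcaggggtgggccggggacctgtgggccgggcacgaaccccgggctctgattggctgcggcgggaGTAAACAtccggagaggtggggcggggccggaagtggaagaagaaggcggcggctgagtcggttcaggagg
Vps26b, chr9:27030045-27030344, minus strand: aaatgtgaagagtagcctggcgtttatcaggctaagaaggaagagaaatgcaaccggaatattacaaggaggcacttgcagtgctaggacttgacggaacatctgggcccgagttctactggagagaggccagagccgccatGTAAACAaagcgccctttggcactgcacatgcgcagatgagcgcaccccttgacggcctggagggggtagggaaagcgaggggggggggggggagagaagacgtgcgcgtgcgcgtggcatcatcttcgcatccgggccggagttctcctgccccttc
Gtsf1, chr15:103430378-103430677, minus strand: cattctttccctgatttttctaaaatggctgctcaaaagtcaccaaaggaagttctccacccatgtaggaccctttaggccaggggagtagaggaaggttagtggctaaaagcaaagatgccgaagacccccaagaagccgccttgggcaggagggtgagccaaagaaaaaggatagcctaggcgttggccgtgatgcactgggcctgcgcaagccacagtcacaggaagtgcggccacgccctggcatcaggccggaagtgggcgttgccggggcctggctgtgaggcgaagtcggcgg
Mpzl1, chr1:165634492-165634791, minus strand: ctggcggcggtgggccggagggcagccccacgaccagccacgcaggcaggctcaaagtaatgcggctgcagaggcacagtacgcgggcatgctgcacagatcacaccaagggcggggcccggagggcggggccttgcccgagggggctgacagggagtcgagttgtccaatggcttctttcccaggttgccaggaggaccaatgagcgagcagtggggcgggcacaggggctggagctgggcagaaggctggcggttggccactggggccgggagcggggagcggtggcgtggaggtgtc

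Probes of the same gene often differed in sign or size. Of 4736 genes with 2 or more tested probes (11705 probes), 916 had every probe below 0 and 1526 every probe above 0, together 51.6%. The median range between the probes of a gene was 0.20 on the log2 scale, and 40 genes had a range over 1. The SE of a single probe's difference was of similar size, 0.17 for the Foxo3 probe for example. Whether the probes of a gene differ beyond that spread was not tested. Of the 63 called genes, 24 had 1 tested probe and 39 had several. These 39 genes hold 41 called probes, with a median difference of -0.84, and 66 other probes, with a median of -0.05. The first of these medians follows from how the called probes were chosen. Of the 66 other probes 41 lay below 0, 51 within 0.25 of 0, 5 below -0.5, and 11 had an unadjusted p under 0.05. Their range was -1.17 to 0.39, and 2 genes, Dek and Prrc2c, had a second called probe.

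**Figure D2:**
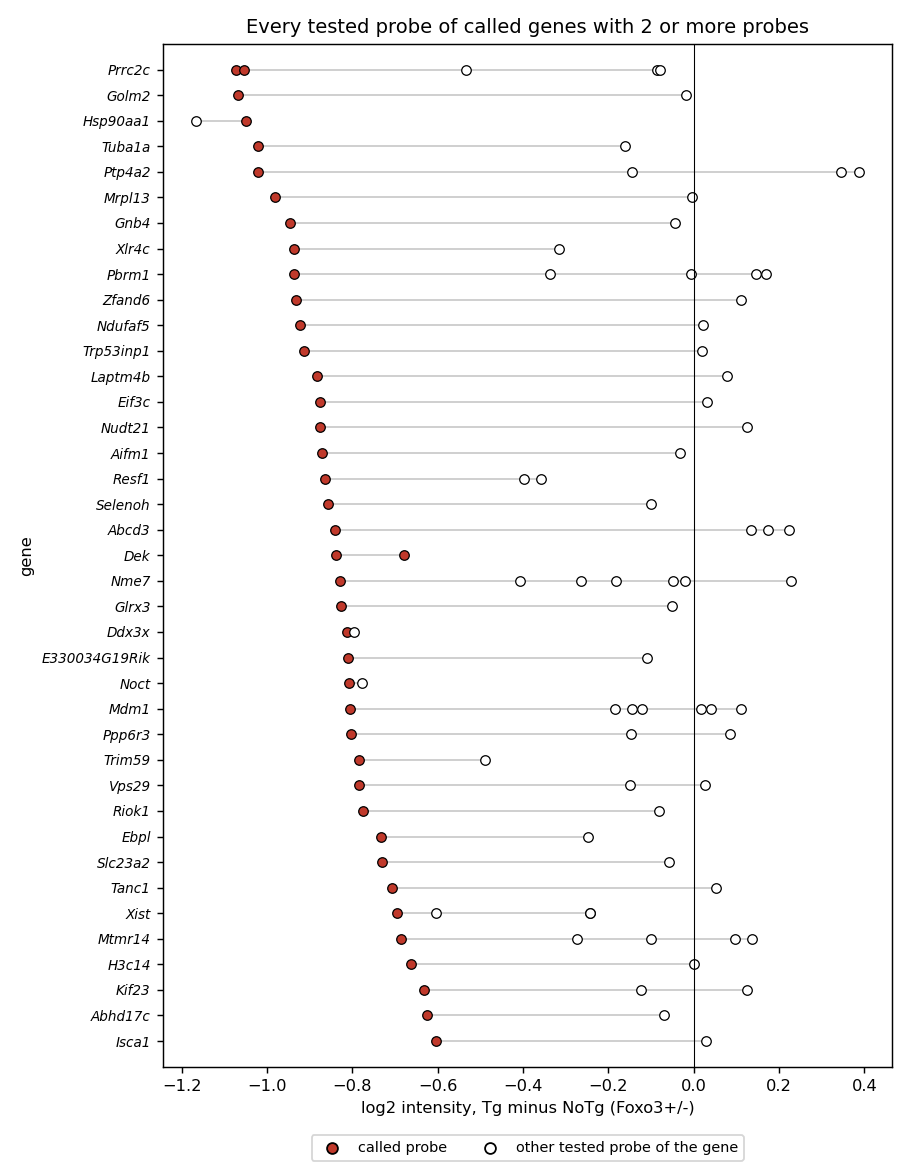
Log2 difference between Tg and NoTg Foxo3+/- ovaries (horizontal axis) for every tested probe of the 39 called genes with 2 or more probes, one gene per line; red points are called probes and white points the other probes of the gene. Most white points lie near 0, with a median of -0.05, and those of Hsp90aa1, Ddx3x and Noct lie beside the red point.

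Ptp4a2, a farnesylated tyrosine phosphatase, shows the disagreement in full. Its called probe ILMN_2725835 had 8.20, 8.03 and 8.26 in Tg ovaries, against 9.03, 9.13 and 9.39 in NoTg ovaries, a fall of 2.03-fold (adjusted p = 0.0112). The brightest probe, ILMN_2611331, had 13.50, 13.19 and 13.09 in Tg ovaries, against 13.46, 13.52 and 13.23 in NoTg ovaries, a difference of -0.14 with overlapping groups. The other 2 probes lay above 0, at 0.39 and 0.35, and neither passed (adjusted p = 0.476 and 0.511). Mdm1, named for its amplification with the gene Mdm2 and known to bind microtubules, fell on 1 of 7 probes, and the other 6, of which 3 were detected on no array of 1 group, lay between -0.18 and 0.11. Nme7, a microtubule-bound member of the nucleoside diphosphate kinase family, fell on 1 of 7 probes, and its others lay between -0.41 and 0.23. Pbrm1 fell on 1 of 5, with the others between -0.34 and 0.17. Probes lay closer together for Dek, Hsp90aa1, Ddx3x and Noct and for the 2 brightest probes of Xist, as given above, and partly for Trim59 (-0.79 and -0.49). The brightest probe of Resf1 differed by -0.36, against -0.86 on the called one.

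The called probe was the brightest of its gene in 13 of the 39 genes and not in 26. The median log2 intensity was 8.06 for called probes and 8.98 for the others. Others brighter than the called probe of their gene, 37 in number, had a median difference of -0.02, and the 29 dimmer ones -0.08, so the others lay near 0 on both sides of the called probe's brightness. When each gene was taken as the mean of its probes, 22 of the 24 genes with 1 probe and 5 of the 39 with several passed, and all 62 falling genes kept their direction. Those 5 were Dek, Xlr4c, Noct, Ebpl and Hsp90aa1. Probe sequences were not used here, so which transcript of a gene each probe reads was not tested.

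Among all genes, the 10 whose probes differed most were mostly not called. Calm2, one of the calmodulin genes, had a probe at 1.27 and another at -0.80, whereas its brightest differed by -0.11. Golga2, a Golgi matrix protein, had 1 probe at 1.69 (adjusted p = 0.168) and 4 between -0.09 and 0.35. Ddx21, a nucleolar helicase, gave 1.31 and -0.26, and Cbx3, a heterochromatin protein, 1.05 and -0.26, with the dimmer probe higher in both. Rab9, a GTPase of late endosomes, gave -0.85 (adjusted p = 0.0587) and 0.30. Gstk1, a glutathione transferase, gave -1.35 on a probe with adjusted p = 0.788 and -0.19 on the brighter one. Srek1ip1, Cfl2 and Eif4g2 also had probes on both sides of 0.

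With the processing used for the tests, the lean towards lower values differed with the brightness of the probe. The counts by brightness were not made in other settings, some of which did not keep the lean. The tested probes were split by mean log2 intensity over the 12 arrays into 10 bins of equal size, numbered from the dimmest, and those past 0.5 on the log2 scale were counted. In bin 1 there were 13 lower and 8 higher in Tg ovaries, and in bin 2 there were 58 lower and 41 higher. In bin 5 there were 127 lower and 25 higher, in bin 7 there were 76 and 6 in that order, and in bin 10, the brightest, 29 and 4. Over the bins the median difference stayed between 0.005 and 0.038, so the body of the probes lay slightly above 0 while the tail lay below it. Bin 7 also held the most called probes, 20 of the 82, and bin 1 held 1. At the detection limit the counts were close to even, with 49 probes detected on all 3 Tg and no NoTg arrays and 58 on no Tg and all 3 NoTg arrays.

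**Figure D3:**
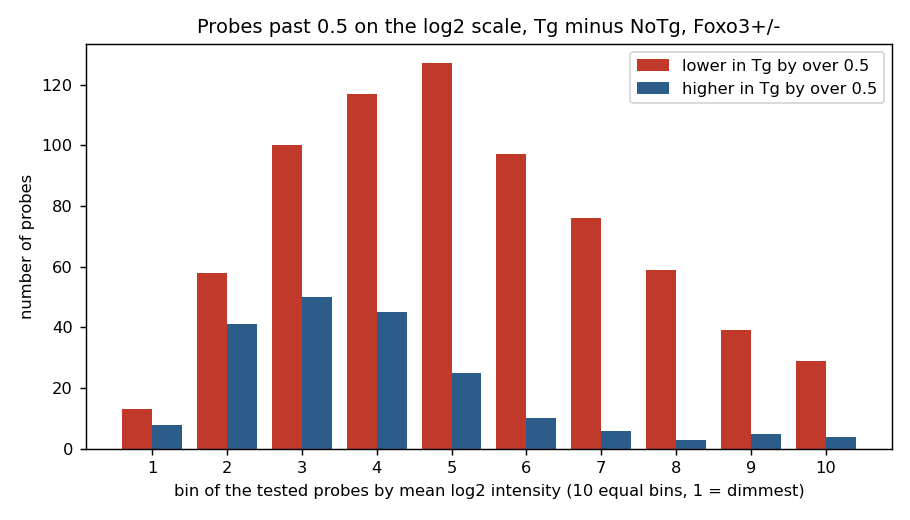
Number of tested probes lower (red) or higher (blue) in Tg than in NoTg Foxo3+/- ovaries by more than 0.5 on the log2 scale, in 10 equal bins of probes from dimmest (1) to brightest (10). Lower probes outnumber higher ones in every bin, 127 to 25 in bin 5 and 13 to 8 in bin 1.

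On most lists of oocyte genes the members lay mostly below 0, and few of them passed, whereas 45.5% of all genes lay below 0. Of 13 measured genes of the zona pellucida and of secreted oocyte factors 0 passed (limma, 4 lower at an unadjusted p under 0.05), 11 lay below 0 and 2 above, with a median of -0.25, against 0.02 over all genes. Zp3, which encodes a coat glycoprotein of the egg, had 12.88, 12.98 and 13.09 in Tg ovaries, against 13.29, 13.19 and 13.22 in NoTg ovaries. These groups did not overlap, but the difference was -0.25 ± 0.09 SE and did not pass (adjusted p = 0.274). Oosp1, an oocyte-secreted protein gene, had 12.32, 12.33 and 12.44 in Tg ovaries, against 12.64, 12.63 and 12.80 in NoTg ovaries (difference -0.33, adjusted p = 0.216), and Bmp6, a growth factor of the oocyte, differed by -0.42. Gdf9 and Bmp15, growth factors on the same list, stayed near 0, at -0.02 and 0.045. Of 7 measured genes of the subcortical maternal complex, which embryos need for their first divisions, 0 passed (5 lower at an unadjusted p under 0.05) and 7 lay below 0 (median -0.23). Khdc3 of this complex had 10.05, 10.06 and 9.88 in Tg ovaries, against 10.50, 10.63 and 10.14 in NoTg ovaries (adjusted p = 0.201), and Padi6 had 14.24, 14.33 and 14.35 in Tg ovaries, against 14.64, 14.45 and 14.54 in NoTg ovaries (adjusted p = 0.298). Of 30 maternal effect genes 2 fell, Gtsf1 and Oas1e, 25 lay below 0 and 5 above, and 9 had groups that did not overlap in the lower direction, against 7.52% of all genes (median -0.20). The lists share members: Nlrp5, Ooep, Tle6, Khdc3, Padi6 and Nlrp4f of the subcortical complex are also among the maternal effect genes. Npm2, an oocyte histone chaperone, differed by -0.44 (adjusted p = 0.286) and Oog4 by -0.81 (adjusted p = 0.122).

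The same lean was present in genes for the storage and translation of maternal RNA. Of 20 measured, 0 passed (limma, 5 lower at an unadjusted p under 0.05) and 17 lay below 0 (median -0.21). Btg4 and Cnot7 of this list are also counted as maternal effect genes and Dazl as a piRNA gene, so the lists are not independent. Cpeb1, which binds the cytoplasmic polyadenylation element, had 8.08, 7.56 and 7.71 in Tg ovaries, against 8.20, 8.07 and 8.38 in NoTg ovaries (difference -0.44, adjusted p = 0.276). Its relative Cpeb3 differed by -0.48 on the brighter probe (adjusted p = 0.168) and 0.03 on the dimmer one. Of 16 genes on the list of oocyte transcription factors 0 passed (3 lower at an unadjusted p under 0.05), 12 lay below 0 and 4 above (median -0.16). Those above 0 include Gata4 (0.085), also counted among granulosa genes, and Tbp (0.013), the general TATA-binding protein, neither of them particular to oocytes. Foxr1, an oocyte forkhead gene, differed by -0.40 (adjusted p = 0.210), Tbpl2, the oocyte TATA-binding protein, by -0.48 (adjusted p = 0.305) and Figla by -0.06 (adjusted p = 0.959). Of 19 piRNA and nuage genes Gtsf1 fell, 11 lay below 0 and 8 above (median -0.11). Genes of meiotic arrest and maturation did not share the lean, with 7 of 16 below 0 and a median of 0.003. The 12 measured genes of meiosis and the synaptonemal complex, Syce2 among them, split evenly, 6 below 0 and 6 above (median -0.06). The medians of the zona, subcortical complex, maternal effect, RNA storage and transcription factor lists were below 0 in all 19 other settings and array subsets in which they were computed. Subsets without a Foxo3-/- array are among these, and they keep every compared array, so they could hardly move the medians. Several of the lists share members, so their signs are not separate results. With each array scaled to the median of all its probes, which put the median of all tested probes at 0.130, they were -0.114, -0.259, -0.091, -0.094 and -0.035 in that order, and the piRNA median turned to 0.033. The zona median was -0.161 without Tg replicate 1, the transcription factor median -0.100 without NoTg replicate 2 and the piRNA median -0.020 without NoTg replicate 1.

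**Figure D4:**
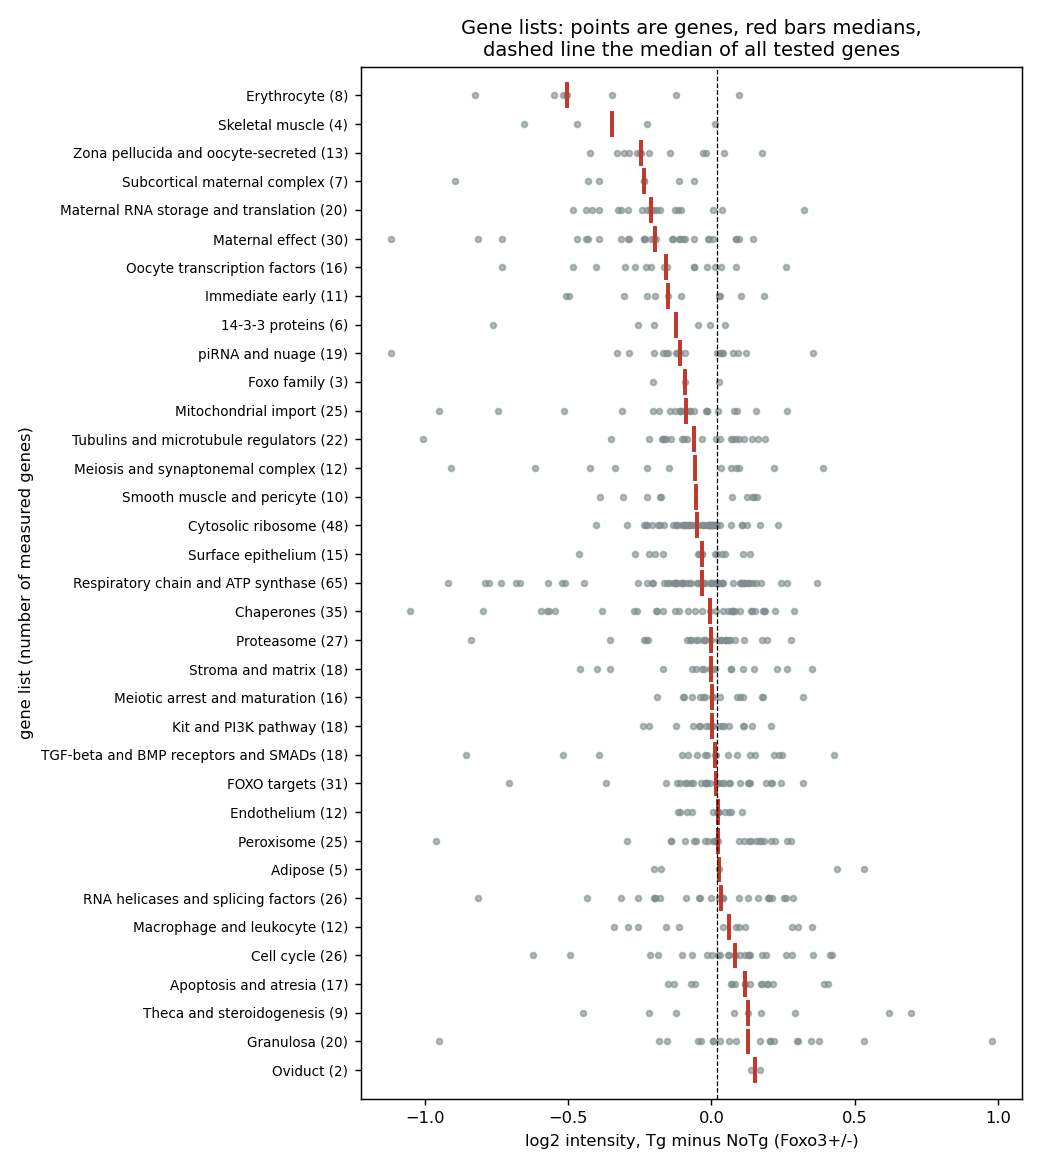
Log2 difference between Tg and NoTg Foxo3+/- ovaries (horizontal axis) of each measured gene (grey points, brightest probe) in 35 gene lists, with the number of measured genes in brackets; red bars are list medians and the dashed line is the median of all tested genes, 0.02. The erythrocyte list has the lowest median (-0.51) and the zona, subcortical complex and maternal RNA lists also lie below the dashed line; the granulosa and apoptosis lists lie above it.

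Lists of somatic cells of the follicle had medians that single arrays moved or turned. For all genes, 0.304% passed and 45.5% lay below 0, with a median of 0.02. Of 20 measured granulosa genes 15 lay above 0 and 5 below, with a median of 0.13, and Slc18a2 was the only member that passed. Inha, the alpha subunit of inhibin, had 13.99, 13.37 and 13.37 in Tg ovaries, against 12.81, 13.15 and 13.17 in NoTg ovaries (difference 0.53 ± 0.17 SE, adjusted p = 0.234). Inhba, the beta A subunit, had 13.03, 11.30 and 10.95 in Tg ovaries, against 10.99, 10.003 and 11.35 in NoTg ovaries (difference 0.98, adjusted p = 0.588), and its high value on Tg replicate 1 stood apart from the others. The summed linear intensity of the granulosa list was 80335, 52834 and 56905 on the Tg arrays, against 51077, 51812 and 55706 on the NoTg arrays. Tg replicate 1 was therefore the high array for this list, and without it the list median was 0.018, against 0.217 without Tg replicate 2. Of 9 theca and steroid genes 6 lay above 0 (median 0.13), and the median was -0.096 without Tg replicate 2, 0.251 and 0.286 without Tg replicates 1 and 3, and 0.049 without NoTg replicate 3. Cyp17a1, the androgen-forming enzyme, ran from 9.66 to 12.24 within Tg ovaries and from 9.70 to 11.14 within NoTg ovaries. Of 26 cell cycle genes 0 passed (2 lower and 2 higher at an unadjusted p under 0.05), 19 lay above 0 and 7 below (median 0.08, or -0.008 without Tg replicate 1), with the ribonucleotide reductase gene Rrm2 at 0.42 on its brighter probe and Pcna, the replication clamp, at -0.62. Of 17 genes of apoptosis and atresia 0 passed (1 higher at an unadjusted p under 0.05) and 13 lay above 0 (median 0.12, or 0.071 without Tg replicate 1), with the death effector Bak1 at 0.41 (adjusted p = 0.431). Id2, a BMP-induced inhibitor of transcription factors on the list of TGF-beta and BMP genes, differed by -0.86 on its brightest probe (adjusted p = 0.0680) and by -0.33 and -0.87 on the others. That list had 0 of 18 members called (3 lower at an unadjusted p under 0.05) and a median of 0.01.

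Cells that dissection can bring along differed between arrays. Of 8 measured erythrocyte genes 0 passed (limma, 3 lower at an unadjusted p under 0.05), 7 lay below 0 and 1 above, with a median of -0.51, and their summed linear intensity was 11429, 21421 and 19994 on the Tg arrays, against 29292, 21016 and 20482 on the NoTg arrays. Tg replicate 1 was low and NoTg replicate 1 high, while the other 4 arrays lay close together. The list median was -0.198 without Tg replicate 1 and -0.292 without NoTg replicate 1. Alas2, the first enzyme of haem synthesis in red cells, had 5.86, 6.999 and 6.86 in Tg ovaries, against 7.56, 6.78 and 7.03 in NoTg ovaries, and Hba-a1, an alpha globin with a close copy, had 11.95, 12.91 and 12.86 in Tg ovaries, against 13.27, 12.82 and 12.68 in NoTg ovaries, with overlap in both. Of 4 measured skeletal muscle genes 3 lay below 0 (median -0.35), with summed intensities of 276, 278 and 309 on the Tg arrays, against 327, 284 and 430 on the NoTg arrays. NoTg replicate 3 was the high array, and the median was -0.148 without it, -0.148 also without Tg replicate 1 and -0.530 without NoTg replicate 2. Summed intensities of 5 adipose genes were 5316 to 6015 on the Tg arrays and 5978 to 6788 on the NoTg arrays, and those of 12 macrophage and leukocyte genes 1039 to 1246 and 909 to 1341 in the same order. The part of these cells in the falls described above was not tested. Stroma (0.000 over 18 genes), smooth muscle (-0.05 over 10), surface epithelium (-0.03 over 15) and endothelium (0.02 over 12) had medians near that of all genes and no calls, and so did the proteasome (-0.003 over 27) and the cytosolic ribosome (-0.05 over 48). At an unadjusted p under 0.05 (limma) these lists had 1, 0, 1, 0, 2 and 3 genes in that order. Immediate early genes had 0 of 11 called (0 also at an unadjusted p under 0.05) and a median of -0.15, and the 2 measured oviduct genes lay at 0.14 and 0.17.

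Ovaries without Foxo3 offered the same transgene comparison on other arrays, 3 Tg Foxo3-/- against 3 NoTg Foxo3-/-, in which 43 probes (0.191%) passed. There the array background also differed between the transgene states, 68.5 to 74.2 on the Tg arrays against 79.9 to 81.2 on the NoTg arrays. All 81 probes that fell in Foxo3+/- ovaries also lay below 0 in Foxo3-/- ovaries, with a median of -0.83 in Foxo3+/- and -0.65 in Foxo3-/- ovaries, where they ranged from -0.20 to -1.33. The median over all tested probes in Foxo3-/- ovaries was 0.02. Array background was lower on the Tg arrays in both comparisons, so the shared direction cannot be told apart from it. Of the 82 calls 20 were also called in Foxo3-/- ovaries, which is 24.4% of the Foxo3+/- calls and 46.5% of the Foxo3-/- calls. Slc18a2 differed by -0.95 in Foxo3+/- and -1.33 in Foxo3-/- ovaries, Slc23a2 by -0.73 and -1.07, Ddx3x by -0.81 and -1.04 and Vhl by -0.80 and -0.95, each in the same order and each called in both. Gtsf1 differed by -0.74 in Foxo3-/- ovaries without passing (limma adjusted p = 0.0512), Hsp90aa1 by -0.54 (adjusted p = 0.129) and Mpzl1 by 0.10 (adjusted p = 0.901). Choosing probes by their fall in Foxo3+/- ovaries favours values further from 0 there, which 65 of the 81 had. The same gap between called and other probes of a gene was present, with medians of -0.65 for the 41 called probes and -0.03 for the 66 others in Foxo3-/- ovaries.

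A test of whether the transgene difference depended on Foxo3 genotype passed for 0 of 22511 probes (limma interaction term, smallest adjusted p = 0.994), with 952 at an unadjusted p under 0.05. Of the 82 called probes 7 were among those 952, including Ptp4a2 (unadjusted p = 0.00488), Mpzl1 (0.00553) and Hsp90aa1 (0.0222). No gene can therefore be called particular to Foxo3+/- ovaries, and with 3 arrays a group the absence of a call does not show that the differences are alike. Most oocyte lists had medians further below 0 in Foxo3+/- than in Foxo3-/- ovaries, -0.25 against -0.01 for the zona list and -0.23 against -0.09 for the subcortical complex, a difference that was not tested. The meiosis list had a median of -0.06 in both.

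**Figure D5:**
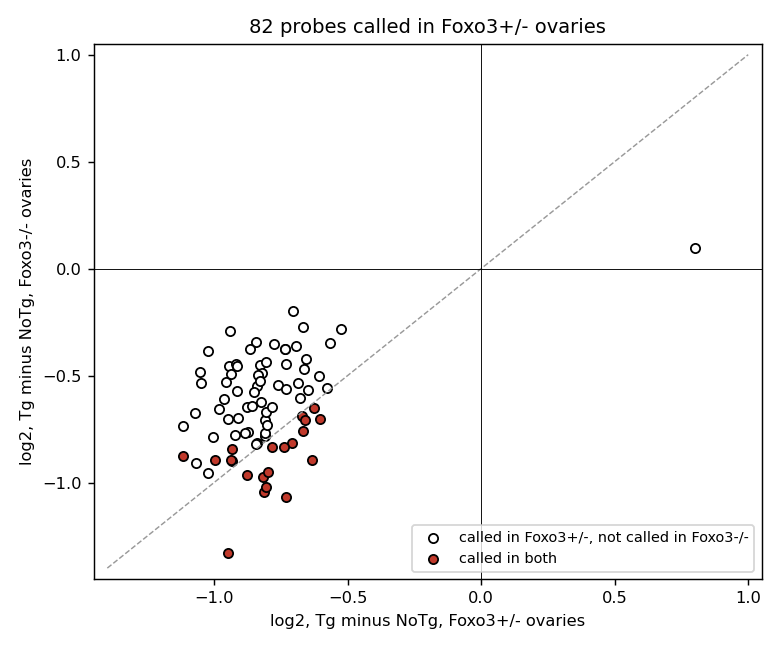
Log2 difference between Tg and NoTg ovaries for the 82 probes called in Foxo3+/- ovaries, in Foxo3+/- (horizontal axis) and Foxo3-/- ovaries (vertical axis); red points are called in both, and the dashed line marks equal differences. All 81 falling probes lie below 0 on both axes, 20 are called in both, and Mpzl1 stands alone at the right with a value near 0 in Foxo3-/- ovaries.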

How the data were processed

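The 12 Illumina bead arrays each held RNA of whole ovary, 3 in each of 4 groups taken from the sample titles. The deposited table of raw intensity holds 1 linear value per probe and array, and its columns were paired with samples per the file headers. Beside each intensity the deposited table holds its detection p-value against the negative control beads. A second deposited table holds intensity normalized by the authors, by a method that was not given in the sources used here, and it served as an alternative after log2. Columns that belong to no sample number 0.

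In R 4.3.3 with limma 3.58.1, the deposited raw intensity was background-corrected by the normal-exponential model from the detection p-values (offset 16), quantile-normalized and taken to log2. The 22511 of 45281 probes with a detection p under 0.05 on at least 3 arrays were tested. Genes came from the array's annotation table, in which 34885 probes have 1 symbol, 18 several and 10378 are unnamed here, and 34807 matched RefSeq (GRCm38.p6) by gene identifier. The 4 group means were fitted to the 12 arrays (lmFit, then eBayes with a trend on intensity), which lends the Foxo3+/- comparison the spread of all groups. A probe was called, and "rose" or "fell" was written, where the two-sided p adjusted over all tested probes (Benjamini-Hochberg) was under 0.05. SE is the model's standard error of the log2 difference.

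For gene lists each gene was taken by its brightest tested probe. The named genes were Foxo3, every called gene with all its tested probes, the 12 of smallest p among those higher in Tg without overlap, up to 6 members of each of 35 lists by smallest p, and the 10 genes whose probes differ most, of which the text prints a part. The genes, lists and tests were chosen with earlier results of these data known. Whether the samples are separate animals is not stated in the labels, and a p-value then reflects only the spread among these arrays, part of which may be technical. The number of arrays limits the precision. Neither chip nor scan day was found in the labels or headers. The model was tested on simulated data, without background correction, normalization or filtering.

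Alternatives were no background correction, scaling by the median of tested probes or, chosen after seeing the data, of all probes, the authors' values, other filters, a block for the replicate number, a model of the compared groups only, array weights, the brightest probe or the mean of a gene's probes, no trend, array background as a covariate, and each array left out in turn.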

Additional observations from a re-analysis of the deposited data

How the results depend on the processing

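The 82 calls in Foxo3+/- ovaries became 0 with scaling by the median of all probes (chosen after seeing the data), with the values normalized by the authors, with a model of the compared groups alone and with array background as a covariate (limma, 1927, 2851, 2044 and 544 at an unadjusted p under 0.05 in that order, of which 559, 2319, 1315 and 269 were lower in Tg ovaries), 24 with no filter, 37 with the brightest probe of each gene, 39 with the mean of each gene's probes and 925 with array weights (661 lower and 264 higher). They were 59 to 96 with no background correction, scaling by the median of tested probes, the other filters and no trend, and 0 to 127 with 1 array left out. Each of the 82 probes kept its direction in every alternative that measured it. With no filter, other filters, the brightest probe, no trend, the replicate block or the compared groups alone, each log2 difference was the same by construction. Its direction could not change there. For models with 1 array left out a kept direction nearly follows from groups that did not overlap. In Foxo3-/- ovaries the 43 calls became 0 with scaling by all probes and with the background covariate, 366 with the authors' values, 22 with no filter, 80 and 81 with the stricter filters, 512 with array weights, 13 with the brightest probe and 0 to 193 with 1 array left out. The interaction gave 0 calls in every alternative. For probes of the same gene, the share of genes with 1 sign, 51.6%, was 41.6% with no filter, 61.7% with scaling by all probes, 54.5% and 55.0% with the stricter filters and 49.7% to 53.0% with 1 array left out; fewer or more dim probes enter under the filters. The cause of the other changes was not tested. Scaling by all probes moved the median of all tested probes to 0.130, against 0.022, and turned the list medians of mitochondrial import, the respiratory chain, tubulins and piRNA genes to 0.043, 0.057, 0.011 and 0.033. Foxo3, at -0.09, turned to 0.049 with scaling by all probes and 0.010 with array weights, differed by -0.496 with array background as a covariate (adjusted p = 0.999), and lay between -0.216 and 0.102 with 1 array left out, the upper value without NoTg Foxo3+/- replicate 3.

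Replicate numbers are shared across groups. Deviations of same-numbered Tg and NoTg Foxo3+/- arrays correlated weakly or not at all (r = 0.09, -0.08 and 0.26 for numbers 1, 2 and 3). For number 3 the arrays were each other's best match, and for numbers 1 and 2 they were not. With 3 arrays a group these correlations cannot show whether the numbers pair the arrays. With the replicate block the calls were 21 in Foxo3+/- and 36 in Foxo3-/- ovaries. Array background differed between the groups by -12.1 intensity units, which limits what dim probes can show.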
